A study of Homo sapiens with 2 samples.

Results

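A positions that read as G only in the presence of ABA were collected from messenger RNA of the human embryonic kidney line HEK-293T. The cells carried a CIRTS-hADAR biosensor in both conditions. One library was made without ABA and 1 with ABA, so nothing here has a replicate check, and each value describes 2 libraries rather than 2 conditions. The dose of ABA, its duration and the way the biosensor was brought into the cells are not given in the sources used here. The sites were chosen by their measured G reads: positions of chromosomes 1 to 22 and X with at least 20 A plus G reads in each library, 0 G reads without ABA and at least 3 with ABA. Of 2854489 positions listed in both libraries, 359090 had the required depth, and 274 of these met the rule.

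CIRTS stands for an engineered way of bringing a protein to a chosen RNA. ADAR enzymes convert adenosine to inosine within double-stranded RNA. Inosine pairs like guanosine, so an edited A appears as G in sequencing. ADAR enzymes are known to be sensitive to the bases beside the edited A, with U or A favoured before it and G favoured after it. The ADAR part of a biosensor can act on its programmed target and also on other transcripts, which is known as off-target editing.

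The 25-base surroundings of the 6 sites with the most G reads are shown because the neighbouring bases set the sites apart from other A positions, as described further on. Only A positions of the transcript were deposited. The patterns therefore give each listed A as a, the site itself as a capital A, and every position not listed as A as n, which is another base or had too few reads. They are written 5′ to 3′ on the transcript, with hg19 coordinates.
chr11:62339088-62339112 (minus strand): nnnannnnnnnnAnnnnnnnannnn
chr12:6647003-6647027 (plus strand): annnnnnnaannAnnnnnnnnannn
chr21:46600291-46600315 (plus strand): annnnannnanaAnnnnnnnnnnnn
chr19:3980922-3980946 (minus strand): annnnnnnnnnnAnannannannan
chr21:46604857-46604881 (plus strand): aaannnnaaannAanannanannna
chr11:75115897-75115921 (plus strand): nnnnanannanaAnannnnnnnnnn
In 5 of these 6 patterns the base directly after the site was not listed as A, and in 2 of the 6 an A stood directly before it. The sixth had 9 G reads, as had 3 further sites with lower shares.

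Sites with G reads only with ABA outnumbered their mirror image. The rule picked 274 of 359090 positions, 0.0763%, or 7.63 per 10000 with an exact 95% interval of 6.75 to 8.59. The mirror rule, 0 G reads with ABA and at least 3 without, picked 14 of the same positions, 0.0039%, or 0.390 per 10000 (0.213 to 0.654). Intervals here and below are Clopper-Pearson and cover counting error alone, with reads treated as independent molecules. As the rule itself uses this contrast, the counts are a description and no test was made on them.

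The other base changes showed no such imbalance. For A-to-C, 2 of 358637 positions had reads only with ABA (0.000558%) and 3 only without (0.000837%). For A-to-T, 1 of 358588 positions had reads only with ABA and 1 only without, 0.000279% each. The A-to-C sites only with ABA were position 70265959 of chromosome 11 (plus), where 6 of 31 reads had C, and position 52027720 of chromosome 3 (minus), where 3 of 74 did. Those only without ABA had 3 C reads each, among 118 at 93018903 of chromosome 5 (minus), 127 at 146016725 of chromosome 8 (minus) and 37 at 26795152 of chromosome 17 (plus). T reads numbered 4 of 53 with ABA at 42578286 of chromosome 2 (minus) and 3 of 162 without ABA at 50001267 of chromosome 19 (plus).

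The imbalance was larger at higher numbers of G reads. With 1 G read in one library and 0 in the other, 10051 positions had the read with ABA and 6062 without, a ratio of 1.66. At 2 G reads, just outside the threshold, the counts were 809 and 174, a ratio of 4.65. At 3 reads, just inside it, they were 167 and 11, a ratio of 15.2, and at 5 or more 50 and 2. A-to-C reads had 1387 and 1266 positions at 1 read and 19 and 16 at 2, and A-to-T reads had 757 and 745, then 7 and 13. A single G read without ABA kept 138 further positions with at least 3 G reads with ABA outside the rule, against 12 in the mirror case. Of the 597 positions with at least 3 G reads with ABA, whatever the other library held, 133 had at least 3 in both. Only 64 of these 133 had G shares under 35% in both libraries.

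**Figure D1:**
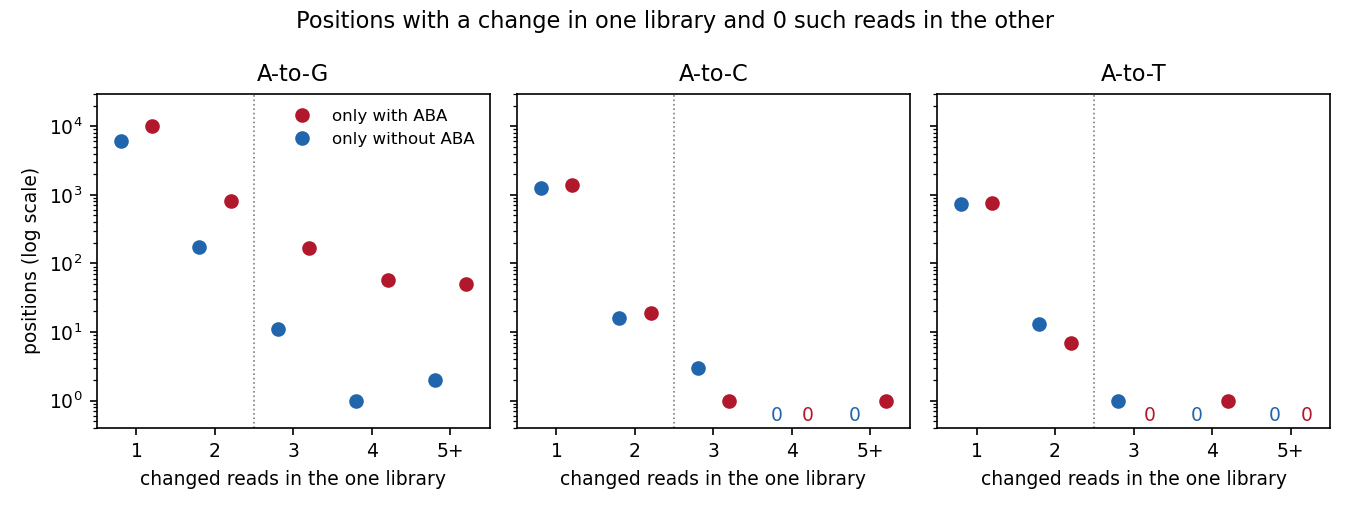
Number of positions (log scale) by the number of changed reads in the one library, with 0 such reads in the other, for A-to-G, A-to-C and A-to-T; red is only with ABA, blue only without, 0 marks an empty class and the dotted line the rule's threshold. The A-to-G counts part from 10051 and 6062 positions at 1 read to 167 and 11 at 3 reads, while A-to-C and A-to-T counts stay close to each other.

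The bases around the sites differed from those around other A positions, a property the rule did not use. An A directly followed the site in 25 of 274 cases, 9.12% (5.99 to 13.2), against 31.3% of all 359090 positions. An A directly preceded the site in 40.1% (34.3 to 46.2), against 30.6%. The position 2 bases before the site was A in 12.8% (9.06 to 17.3), against 29.9%. At 2 bases after the site the shares were 29.6% and 30.6%. At the other offsets up to 5 bases away the sites also had fewer A, for example 18.2% (13.9 to 23.3) against 28.1% at 5 bases before. At 3 bases after, the shares were 24.1% (19.1 to 29.6) and 32.2%. The 27.0% (21.8 to 32.7) against 31.5% at 3 bases before was within counting error. Runs of 5 or more A held 1.09% of the sites and 4.83% of all positions. Which of the other 3 bases stood beside a site was not determined, since no hg19 genome was used here.

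The shortage of a following A grew with the number of G reads in the ABA library. Positions with 0 G reads without ABA had a following A in 22.2% at 1 G read with ABA, in 12.9% (10.6 to 15.4) at 2 and in 9.12% at 3 or more. In the mirror direction the shares were 29.2% (28.0 to 30.3) at 1 read and 34.5% (27.5 to 42.1) at 2, against 31.7% of positions without any G read. The interval at 1 read lies below that share and the interval at 2 includes it. Of the 14 mirror sites, 1 had a following A and 6 a preceding one. Positions with at least 3 G reads in both libraries and shares under 35%, 64 in number, had a following A in 12.5% (5.55 to 23.2). The share was 21.2% (19.6 to 22.7) at the 2690 positions with an A-to-C read in either library.

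A following A was also rarer at deep sites and outside chromosome 21. From a depth of 50 reads in each library a following A was found in 10.4% of 154 sites and 34.0% of 28765 positions. Without chromosome 21 it was found in 9.45% of 254 sites. A preceding A was found from 50 reads in 40.3% of sites (32.4 to 48.5) and 33.3% of positions, so at that depth its excess was within counting error. At 2 bases before, the deep shares were 13.6% (8.64 to 20.1) and 31.0%. Sites near each other share sequence and are not independent draws.

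**Figure D2:**
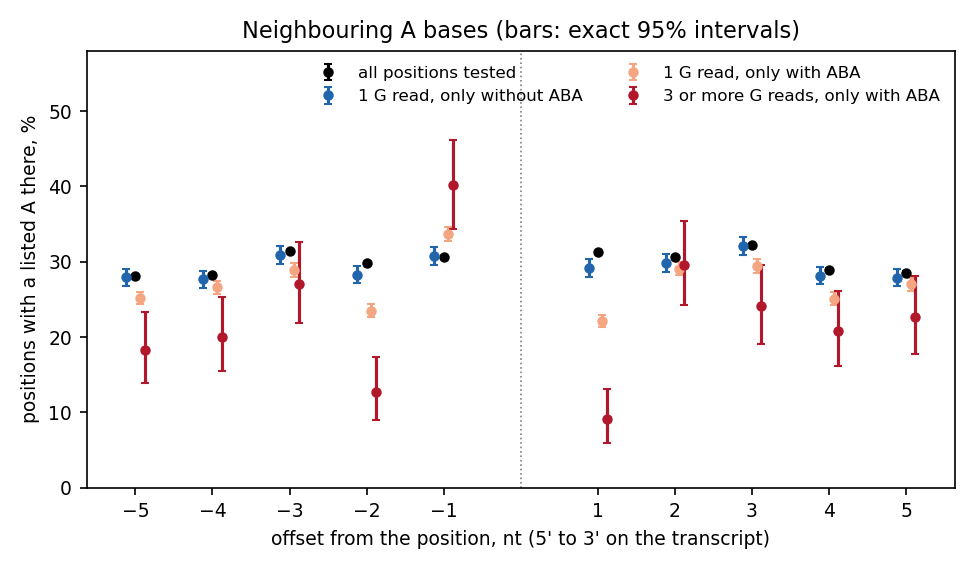
Share of positions (%) with a listed A at each offset from −5 to 5 nt on the transcript, for all positions tested (black), positions with 1 G read only without ABA (blue) or only with ABA (orange), and the 274 sites (red), with exact 95% intervals. At offset 1 the sites stand at 9.12% and all positions at 31.3%, and at offset −1 the sites stand at 40.1% and all positions at 30.6%.

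Counted the other way, sites were most frequent where an A came before and another base after, with 14.1 per 10000 positions (11.5 to 17.1; 102 of 72324). Positions with another base on both sides had 8.42 per 10000 (7.12 to 9.90), and positions followed by an A had 2.23 (1.44 to 3.29). The A-to-G rate of the remaining positions, sites and shares of 35% or more left out, followed the same order in both libraries. It was 0.0787% without and 0.164% with ABA where an A came before and another base after, a ratio of 2.09 (1.98 to 2.21). With another base on both sides it was 0.0695% and 0.126%, a ratio of 1.81 (1.74 to 1.88). Where an A followed it was 0.0563% and 0.0720%, a ratio of 1.28 (1.21 to 1.35).

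Most sites had low G shares. The share with ABA ran from 0.815% to 20%, with a median of 5.83% and quartiles of 3.52% and 8.56%. It was under 5% at 117 sites, from 5% to under 10% at 115, from 10% to under 15% at 35 and 15% or more at 7. Together the sites had 1051 G reads among 22176 with ABA, and 19686 reads without ABA held none by the rule. The share that 0 reads still allow without ABA was taken as 3 reads of that site's depth. At 138 of the 274 sites the share with ABA did not exceed this limit, so a difference was not detectable there at this depth. At the other 136 the share exceeded the limit. The lower bound of the share's interval was above the limit at only 7 of the 274 sites (2.55%).

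**Figure D3:**
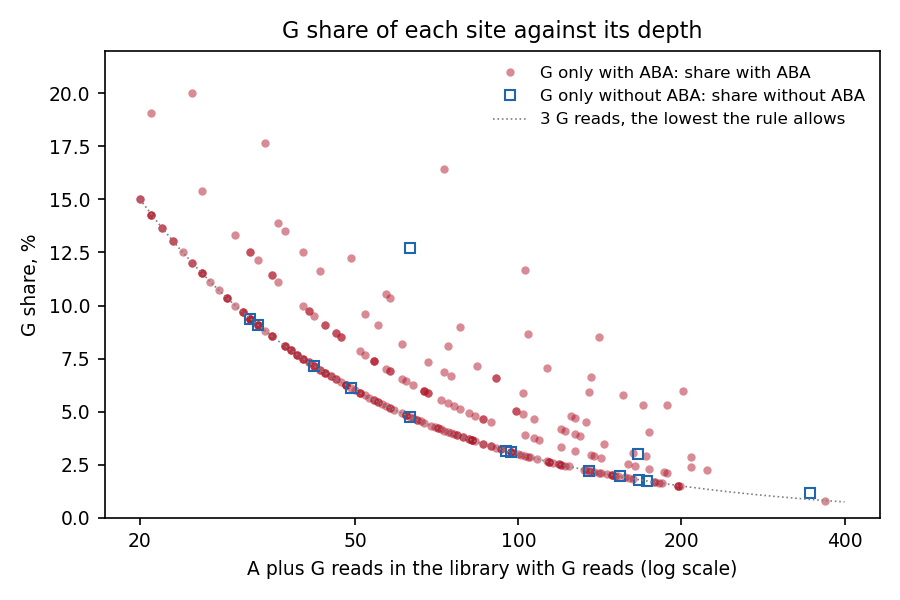
G share (%) of each site against its A plus G reads (log scale) in the library that holds the G reads, with the 274 sites only with ABA in red and the 14 mirror sites in blue. The dotted line marks 3 G reads, so that low shares can be seen only at deep positions; the sites reach 20% and the mirror sites 12.7%.

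The sites with the most G reads were found on several chromosomes. At 62339100 of chromosome 11 (minus) there were 0 G reads among 57 without ABA, which allows a share of up to 5.26%, and 12 among 73 with ABA (16.4%, 8.79 to 27.0). At 6647015 of chromosome 12 (plus) there were 0 among 76, allowing up to 3.95%, and 12 among 103 (11.7%, 6.17 to 19.5). The deepest of the 12 was 3980934 of chromosome 19 (minus), with 0 among 204, allowing up to 1.47%, and 12 among 201 (5.97%, 3.12 to 10.2). These G reads chose the sites, so the values are a description.

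On chromosome 21 (plus strand), 46600303 had 0 of 51 and 12 of 141 reads (8.51%) and 46604869 had 0 of 141 and 10 of 188 (5.32%). Further along, 46642048 had 0 of 79 and 9 of 136 (6.62%), 46642021 had 0 of 81 and 9 of 170 (5.29%), and 46642075 had 0 of 66 and 8 of 113 (7.08%). All 5 had more reads with ABA than without.

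Depth was close to equal at the other leading sites. G reads numbered 0 of 101 without and 9 of 104 with ABA (8.65%) at 75115909 of chromosome 11 (plus), and 0 of 159 and 9 of 156 (5.77%) at 52027800 of chromosome 3 (minus). They numbered 0 of 145 and 8 of 135 (5.93%) at 69747625 of chromosome 15 (plus). The 12th, 62334995 of chromosome 11 (minus), had 0 of 71 and 7 of 78 (8.97%), a count shared with 5691430 of chromosome 19 (plus), 7 of 174, whose share was lower. Position 62334995 lies on the strand of the chromosome 11 site with 12 G reads, and the chromosome 3 site lies 80 nt from the A-to-C site of that strand named above.

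Apart from the 12 sites already named, of which 62339100 had the highest share at 16.4%, the highest shares belonged to shallow positions, where few G reads make a large share. The highest was 20% (6.83 to 40.7), 5 G reads of 25 with ABA after 0 of 27 without, at 212792997 of chromosome 1 (plus). Next came 40605280 of chromosome 15 (minus), with 0 of 22 and 4 of 21 (19.0%), and 22550912 of chromosome 7 (minus), with 0 of 29 and 6 of 34 (17.6%). Position 26734561 of chromosome 21 (plus) had 0 of 20 and 4 of 26 (15.4%). With 3 G reads each, 43495780 and 171299961 of chromosome 5 (both minus) had 15%. Positions 34101308 of chromosome 11, 76209656 and 89173988 of chromosome 15 (all plus) were tied at 3 of 21 (14.3%). Without ABA, 0 reads at the 8 positions chosen by share, which leave out the last of these, still allow 10.3% to 15%.

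Deep positions held most of the sites, as a rule that asks for 3 G reads favours them. Positions of 100 reads or more in each library were 1.24% of those tested and held 58 of the 274 sites, 130.0 per 10000 (98.8 to 168). From 50 to 99 reads the frequency was 39.5 per 10000 and from 20 to 29 reads 1.90. Mirror sites were fewer in every class, with 13.4 per 10000 (4.94 to 29.2) from 100 reads and 0.0431 from 20 to 29. The sites were also deeper with ABA, with a median ratio of depths of 1.13 (quartiles 1 and 1.27) against 1 over all positions. The rule itself favours this, as its G reads count towards the depth with ABA and deeper positions reach 3 G reads more easily. The mirror sites, chosen the other way, had a median ratio of 0.960 (quartiles 0.851 and 1.02). With each position thinned to the lower of its depths, the rule gave 220 sites and its mirror 15.

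**Figure D4:**
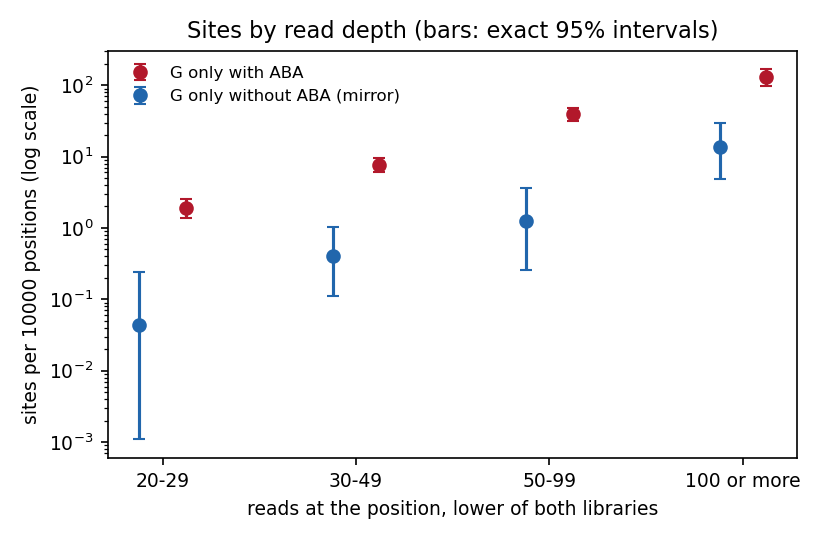
Sites per 10000 positions (log scale) by read depth, taken as the lower of both libraries, for the rule (red) and its mirror (blue), with exact 95% intervals. From 100 reads the frequencies are 130.0 and 13.4 per 10000, and from 20 to 29 reads 1.90 and 0.0431.

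The sites were spread over the genome and over both strands. They lay on 22 of 23 chromosomes, 140 on the plus and 134 on the minus, and outnumbered the mirror sites on each of those 22. Chromosome 4 had 0 sites among 8307 positions, which at 3 counts allows up to 3.61 per 10000, with an exact upper bound of 4.44. Chromosome 21 had the highest frequency, 50.8 per 10000 (31.1 to 78.4; 20 of 3936). Chromosome 19 followed with 18.3 (13.1 to 24.9; 40 of 21851), and chromosome 15 with 16.6 (12 of 7216). Chromosome 19 also had more deep positions, 12.1% from 50 reads against 8.01% overall. Among those its frequency was 114 per 10000, against 53.5 over all chromosomes.

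**Figure D5:**
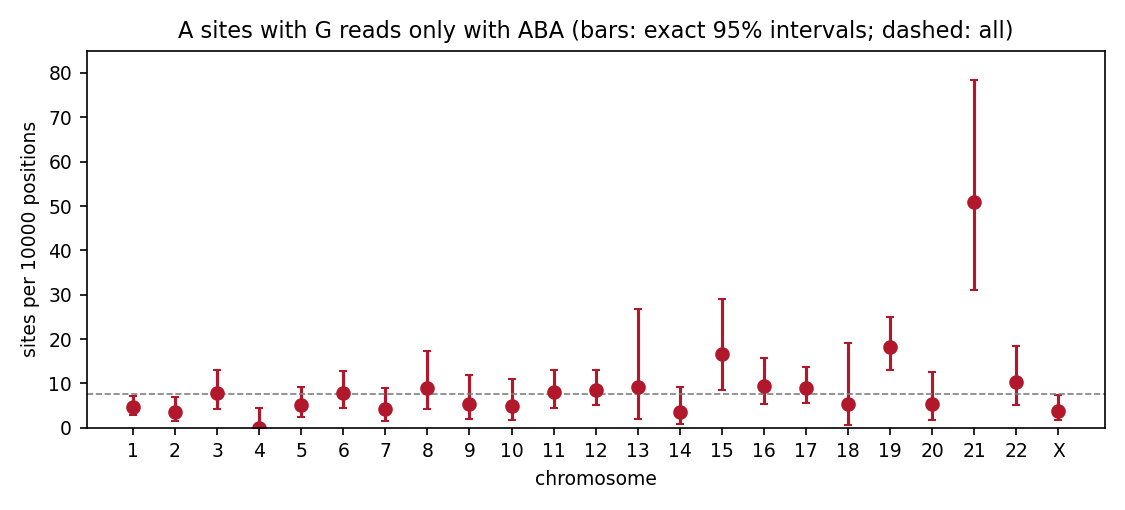
Sites with G reads only with ABA per 10000 positions tested, by chromosome, with exact 95% intervals; the dashed line is the frequency over all chromosomes, 7.63. Chromosome 21 stands at 50.8 and chromosome 19 at 18.3, and chromosome 4 has 0 sites.

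On chromosome 21, 16 of the 20 sites lay on the plus strand between 46600303 and 46642080, where 263 positions were tested. These 16 had G shares from 2.01% to 8.51% with a median of 4.90%. Read depth over this locus was 1.53 times as high with ABA, and 1.72 times at the median site. Which gene lies here was not determined. Whether reads of the biosensor's own human ADAR sequence were aligned to this locus was not tested. Outside the locus chromosome 21 had 4 sites among 3673 positions, 10.9 per 10000, and all chromosomes together had 258 sites among 358827, 7.19 per 10000.

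Sites often lay near each other. Of the 274, 59 had another site on the same strand within 100 nt, 114 within 1000 nt and 141 within 5000 nt. Deep positions in general lay close to sites. From 50 reads in each library, 61.0% of 154 sites (52.9 to 68.8) had another site within 1000 nt, against 27.1% of 28765 positions, and from 100 reads 72.4% of 58 sites (59.1 to 83.3), against 50.2% of 4463. Sites at most 10 nt from another numbered 11, and sites further apart can also sit on the same reads. Joined over gaps of up to 5000 nt, the sites formed 180 stretches, of which 133 held 1 site and 21 held 3 or more.

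The stretch with the most sites, 12, ran over the minus strand of chromosome 19 from 3976151 to 3983230. Of 579 positions tested there 2.07% were sites, with shares from 1.65% to 5.97%, and 0 were mirror sites. Over all positions tested 0.0763% were sites and 0.0039% mirror sites. Those positions are mostly shallower, as the stretch had median depths of 107 reads without and 116 with ABA. From 100 reads, sites numbered 130.0 per 10000 (98.8 to 168) and mirror sites 13.4. The stretches were named for their many sites, so such shares are high by choice. Besides 3980934, named above, the G reads with ABA were 6 of 127 at 3977971, 5 of 208 at 3983230, 5 of 163 at 3981366 and 4 of 138 at 3980850. The other 7 sites had 3 each, at depths from 86 to 182 reads. Its depth hardly changed, at 1.06 times with ABA. At the 567 other positions, none with a share of 35% or more, the A-to-G rate was 0.141% without ABA and 0.302% with it, and the share was higher with ABA at 126 positions and lower at 60.

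The next stretches both belonged to the chromosome 21 locus, with 7 sites from 46640922 to 46642080 and 6 sites from 46600303 to 46604869. In the first, 19.4% of 36 positions tested were sites. On chromosome 8 (minus strand), 6 sites lay from 146015190 to 146016771, with shares from 1.51% to 2.88%, and among the same positions 1 of the 3 A-to-C sites found only without ABA, at 146016725, had 3 of 127 reads. The fifth stretch, on chromosome 17 (minus strand) from 79477352 to 79479328, had 5 sites with shares from 2.44% to 4.23%. All 5 stretches had 0 mirror sites. Mirror sites numbered 0.390 per 10000 over all positions and 13.4 (4.94 to 29.2) from 100 reads, so 0 says little in stretches of this size.

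Around the sites, other A positions had higher A-to-G rates than elsewhere in both libraries, and the pooled A-to-C and A-to-T rate was higher as well. Within 50 nt on the same strand, with sites, mirror sites and shares of 35% or more left out, the A-to-G rate was 0.149% without ABA and 0.288% with it, a ratio of 1.94 (1.74 to 2.16). Elsewhere it was 0.0400% without and 0.0749% with ABA, and the ratio 1.87 (1.83 to 1.91), at a median depth of 12 reads without ABA against 47 near the sites. From 50 reads in each library the rates were 0.172% and 0.326% near the sites, a ratio of 1.90 (1.69 to 2.14), while elsewhere the rate was 0.122% without ABA and 1.64 times as high with it (1.56 to 1.72). Without chromosome 21 these deep ratios were 1.76 (1.55 to 2.01) and 1.67 (1.59 to 1.75), which overlap. A-to-C and A-to-T reads together stood, from 50 reads, at 0.0550% and 0.0489% near the sites and at 0.0335% and 0.0341% elsewhere.

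In the 5 bases after a site the ratio was 2.64 (1.77 to 4.02), or 2.28 (1.48 to 3.58) without chromosome 21, the highest of the distances compared. In the 5 bases before a site the rates were 0.144% and 0.323%, 2.25 times as high with ABA. From 51 to 100 nt away the ratio was 2.15 (1.77 to 2.61) before and 1.97 (1.62 to 2.39) after. These intervals overlap, so no change with distance was shown. Near the mirror sites the ratio was 1.16 (0.839 to 1.59), from 75 and 88 G reads. From 50 reads, another A with a G read within 50 nt was found at 82.5% of the sites without ABA and at 95.5% with it, against 70.3% and 82.8% of all positions of that depth.

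At the sites themselves the other changes were few in number, but with ABA their rate was higher than over all positions tested. A-to-C and A-to-T reads numbered 15 of 21140 with ABA, 0.0710% (0.0397 to 0.117), and 7 of 19693 without, 0.0355% (0.0143 to 0.0732). Over all positions tested they stood at 0.0195% with ABA, below the interval at the sites, and at 0.0189% without, inside it. Those positions were shallower, with a median of 29 reads with ABA against 67 at the sites. At other positions within 50 nt of the sites, from 50 reads, A-to-C and A-to-T reads stood at 0.0489% with ABA, inside the interval at the sites. At the mirror sites they numbered 5 of 1569 without ABA, 0.319% (0.104 to 0.742), and 2 of 1566 with it, 0.128% (0.0155 to 0.461). Of the 274 sites, 13 had such a read with ABA and 6 without.

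Of the 14 mirror sites, 8 lay within 1000 nt of a site with G reads only with ABA on the same strand. From 100 reads these were 5 of 6 (35.9% to 99.6%), an interval that includes the 50.2% of all positions of that depth. The closest pair, 9 nt apart on chromosome 19 (plus), had 3 of 167 and 0 of 164 reads at 5691421 and 0 of 158 and 7 of 174 at 5691430. The mirror sites with the most G reads were on chromosome 3 at 49397323 (minus), with 8 of 63 reads (12.7%) without ABA and 0 of 57 with it, and on chromosome 15 at 69747773 (plus), with 5 of 166 (3.01%) and 0 of 171. The first lay 46 nt from a site at 49397277, which had 0 of 43 and 3 of 35 reads. The 14 mirror sites had a median share of 3.13% without ABA.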

How the data were processed

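For each library the authors deposited, per the file headers, 1 file of A positions on the plus strand and 1 of T positions on the minus strand, with counts of reads per base and a single base read cutoff of 5. The submitters' processing notes name cutadapt, HISAT2 and the hg19 build, without versions. The base counter, any removal of duplicate reads and the way strand was assigned are not given in the sources used here.

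Minus-strand counts were complemented and the libraries joined by position. The library without ABA listed 4079392 positions with 51092343 reads of bases, and the one with ABA 3518802 with 45277712. For the background changes, A plus C or A plus T replaced A plus G in the depth rule. Intervals of ratios are exact conditional binomial at 95%. A neighbouring base counted as A where either library listed it. Named were the 12 sites with the most G reads (ties by share, then position), the 8 others with the highest shares (same ties), the 5 stretches with the most sites and up to 4 background sites a rule. The pairs of mirror sites and sites, the comparison by number of G reads and the comparisons of closeness and neighbours from 50 or 100 reads were picked once the values were known. The sites and lists were chosen with earlier results of these data known. No annotation of hg19 was used here, so planned gene lists were not run. The rule was also run on simulated counts with planted sites, which checks only that it picks the positions it defines. Intervals came from scipy 1.17.1 and figures from matplotlib 3.10.9, under Python 3.11.15 with pandas 2.3.3 and numpy 2.4.6. The random seed was 1.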

Additional observations from a re-analysis of the deposited data

How the results depend on the processing

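Counts depended most on the number of changed reads asked for. With at least 2 reads there were 1083 A-to-G sites only with ABA and 188 only without, with A-to-C at 21 and 19 sites and A-to-T at 8 and 14. With at least 5 reads the A-to-G counts were 50 and 2, A-to-C had 1 site only with ABA and 0 only without, and A-to-T had 0 in each direction. A coverage minimum of 50 reads gave 154 and 9 A-to-G sites and 1 A-to-C site only with ABA, and a minimum of 10 gave 22 A-to-G sites only without ABA against 315 only with it. Under the remaining alternatives all counts stayed within 1.5 times the reported ones. These were depth over all 4 bases, sites at most 10 nt apart counted once (268 and 14), thinning (220 and 15) and leaving out chromosome 21 (254 and 13). A-to-G sites only with ABA were more numerous than the mirror sites in all 8 alternatives. No paired analysis was possible because each condition had 1 library. The median depth of 10 reads leaves most positions outside the rule.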

Other observations

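The files also hold mitochondrial RNA and the luciferase reporters, to which the same rule was applied. Firefly luciferase had 10 sites with G reads only with ABA among 426 positions, 2.35% of its positions. Of the nuclear positions tested, 0.0763% were such sites. Firefly luciferase had 0 mirror sites, which were 0.0039% of those nuclear positions. All 10 lay from position 1704 to position 1833 of the reporter. At the deepest, 1824, G made up 9 of 314 reads with ABA (2.87%) and 0 of 211 without, and at 1759 it made up 8 of 151 (5.30%) and 0 of 95. Renilla luciferase had 3 such sites among 227 positions, 1.32%, and 0 mirror sites. With ABA, G made up 12 of 70 reads at position 264, 3 of 83 at 307 and 3 of 99 at 523. Without ABA it made up 0 of 45, 0 of 70 and 0 of 63. Every reporter site was deeper with ABA than without, and all had at least 45 reads in each library. Nuclear sites were also more frequent at depth, with 39.5 per 10000 positions from 50 to 99 reads and 130.0 from 100 reads. Reporters and nuclear positions were not compared at like depth. At firefly positions 1758, 1776, 1779, 1780 and 1831 the share did not exceed the share that 0 reads still allow without ABA. The same held at Renilla positions 307 and 523. Mitochondrial RNA had 0 sites among 3985 positions and 1 mirror site, whose G reads were 3 of 38 without and 0 of 22 with ABA. A-to-C and A-to-T gave 0 sites in either direction in all 3 RNAs.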
